A study of Homo sapiens with 6 samples.

Results

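The Hippo pathway genes described here were 36 genes for its kinases, their adaptors and scaffolds, the co-activators YAP and TAZ and the TEAD factors, chosen by name from the 27980 gene symbols counted in each library. All 36 had enough counts to be tested, among 15473 genes tested in all. RNA was sequenced from RKO, a poorly differentiated human colon carcinoma line, in 3 libraries of cells with a TRIP6 knockdown from a lentiviral TRIP6-specific hairpin (shTRIP6) and 3 libraries of cells with a scrambled hairpin (shControl). Cells of both groups had been infected with lentivirus and selected with puromycin at 5 µg/ml. The labels give the control genotype as WT, call the replicates biological and do not say whether the lines were pools or clones or whether the replicates were separate cultures, so p-values measure only the spread between these libraries. Differences are between the groups, and a difference between the stocks of cells cannot be told apart from one made by the hairpin.

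In the Hippo pathway the kinases MST1 and MST2 (genes STK4 and STK3), bound to the adaptor SAV1, activate the kinases LATS1 and LATS2, which are bound to MOB1. LATS kinases phosphorylate YAP (YAP1) and TAZ (WWTR1) and hold them in the cytoplasm, and unphosphorylated YAP and TAZ enter the nucleus and switch on genes through TEAD factors. TRIP6, an adaptor protein of focal adhesions and cell junctions, has been reported to bind LATS kinases and to hinder their activation. These libraries measured mRNA, and neither phosphorylation nor the location of a protein was measured.

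The libraries held 31096598 to 32089298 counts in shTRIP6 and 29605764 to 30949334 counts in shControl, and values are given as CPM, counts scaled to the size of each library. TRIP6 itself had 19.8, 19.4 and 19.5 CPM in the shTRIP6 libraries, against 73.9, 86.5 and 80.6 CPM in the shControl libraries (log2 fold change -2.04 ± 0.071, edgeR adjusted p = 1.25e-14), so that 24.3% of the control level was left. Replicates differed by more than sampling noise, as chi-square over its degrees of freedom was 3.08 to 4.73 for pairs within shTRIP6 and 4.92 to 12.2 for pairs within shControl, of which replicate 1 stood farthest from the others. Of 8 epithelial markers, only the keratin genes KRT8, KRT18 and KRT19 were above 1 CPM, EPCAM and VIL1 had no count in any library, and CDH1, CDX2 and CLDN4 stayed below 1 CPM. KRT19 was called higher in shTRIP6 (50.7 ± 3.15 CPM in shTRIP6 and 13.8 ± 2.27 CPM in shControl, log2 fold change 1.87 ± 0.10, edgeR adjusted p = 7.84e-12), CLDN4 lower (0.0848 ± 0.0178 CPM in shTRIP6 and 0.650 ± 0.286 CPM in shControl, log2 fold change -2.88 ± 0.63, edgeR adjusted p = 6.19e-04), and KRT8 and KRT18 did not pass. The summed level of the epithelial markers, nearly all of it KRT8 and KRT18, was 2533 to 2731 CPM in shTRIP6 and 2516 to 2804 CPM in shControl. DCN and POSTN, fibroblast matrix genes, had no count in any shTRIP6 library. The sum over 8 fibroblast markers was 17.0 to 18.5 CPM in shTRIP6 and 29.8 to 33.6 CPM in shControl, with 1 member called higher and 4 lower. PDGFRB, which made up most of the shTRIP6 sum, went the other way, at 13.9 ± 1.18 CPM in shTRIP6 and 6.89 ± 1.23 CPM in shControl. The sum over 5 leukocyte markers was 236 to 245 CPM in shTRIP6 and 187 to 236 CPM in shControl, nearly all of it CD68, and both testable members were called higher, CD68 at a log2 fold change of 0.20 (edgeR adjusted p = 0.0118) and the monocyte gene CD14 at 2.22 ± 0.540 CPM in shTRIP6 and 0.520 ± 0.189 CPM in shControl (log2 fold change 2.08 ± 0.37, edgeR adjusted p = 7.40e-05). LYZ averaged 0.106 ± 0.0655 CPM in shTRIP6 and 0.119 ± 0.0801 CPM in shControl and could not be tested, while PTPRC and CD3E had no count in any shTRIP6 library and averaged under 0.1 CPM in shControl. The sum over 5 endothelial markers was 1.61 to 1.85 CPM in shTRIP6 and 2.66 to 3.24 CPM in shControl. In it PECAM1 was called lower, with 0 counts over the shTRIP6 libraries and 151 over the shControl libraries (edgeR adjusted p = 2.14e-07), and TIE1 higher (1.51 ± 0.136 CPM in shTRIP6 and 0.778 ± 0.354 CPM in shControl, log2 fold change 0.94 ± 0.38, edgeR adjusted p = 0.0379). The part of these markers in the results below was not tested.

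All 36 genes were detected in every library, and they differed between the groups in both directions by mostly small amounts. In shTRIP6, 11 of the 36 genes were called higher and 15 lower (edgeR adjusted p under 0.05), and 10 did not pass. This comes to 72.2% called, against 60.1% of all tested genes. It was 65.3% among the 11579 tested genes that averaged at least 5 CPM over all 6 libraries, a level that every member exceeded. DCHS1 exceeded it only through shTRIP6, as it averaged 1.31 CPM in shControl. The members called higher came to 30.6%, against 29.0% of all tested genes and 33.3% of those at 5 CPM, and the members called lower to 41.7%, against 31.2% and 32.1% of the same sets. The share called higher was thus close to the background, and the share called lower stood above it, a difference that was not tested. Without DCHS1, 71.4% of 35 members were called, 28.6% higher and 42.9% lower. In bulk RNA a lower level in each cell and fewer cells with the transcript cannot be told apart. The median log2 fold change of shTRIP6 over shControl was -0.028 over the members and -0.0040 over all tested genes, and the median of its absolute value was 0.26 over the members and 0.33 over all tested genes. The atypical cadherin gene DCHS1 was the sole member called with a change of at least 2-fold, where 14.9% of all tested genes and 8.39% of those at 5 CPM were so called. The libraries of the groups did not overlap in 28 of the 36 members, against 65.3% of all tested genes and 69.7% of those at 5 CPM. Of the 36 members, 12 were higher in shTRIP6 without overlap (background 31.8% of all tested genes and 35.6% at 5 CPM). A further 16 of the 36 were lower (33.5% and 34.1%). As with the calls, the share higher was close to the background and the share lower above it, which was not tested. Under upper-quartile scaling, which moved the median of all genes by under 0.1 on the log2 scale, 15 members were called higher and 12 lower, so the order turned. With any 1 shTRIP6 library left out, 10 to 11 were called higher and 12 lower. The share of all tested genes called was not counted in these settings, so the share called lower was set against a background in the main fit only.

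**Figure D1:**
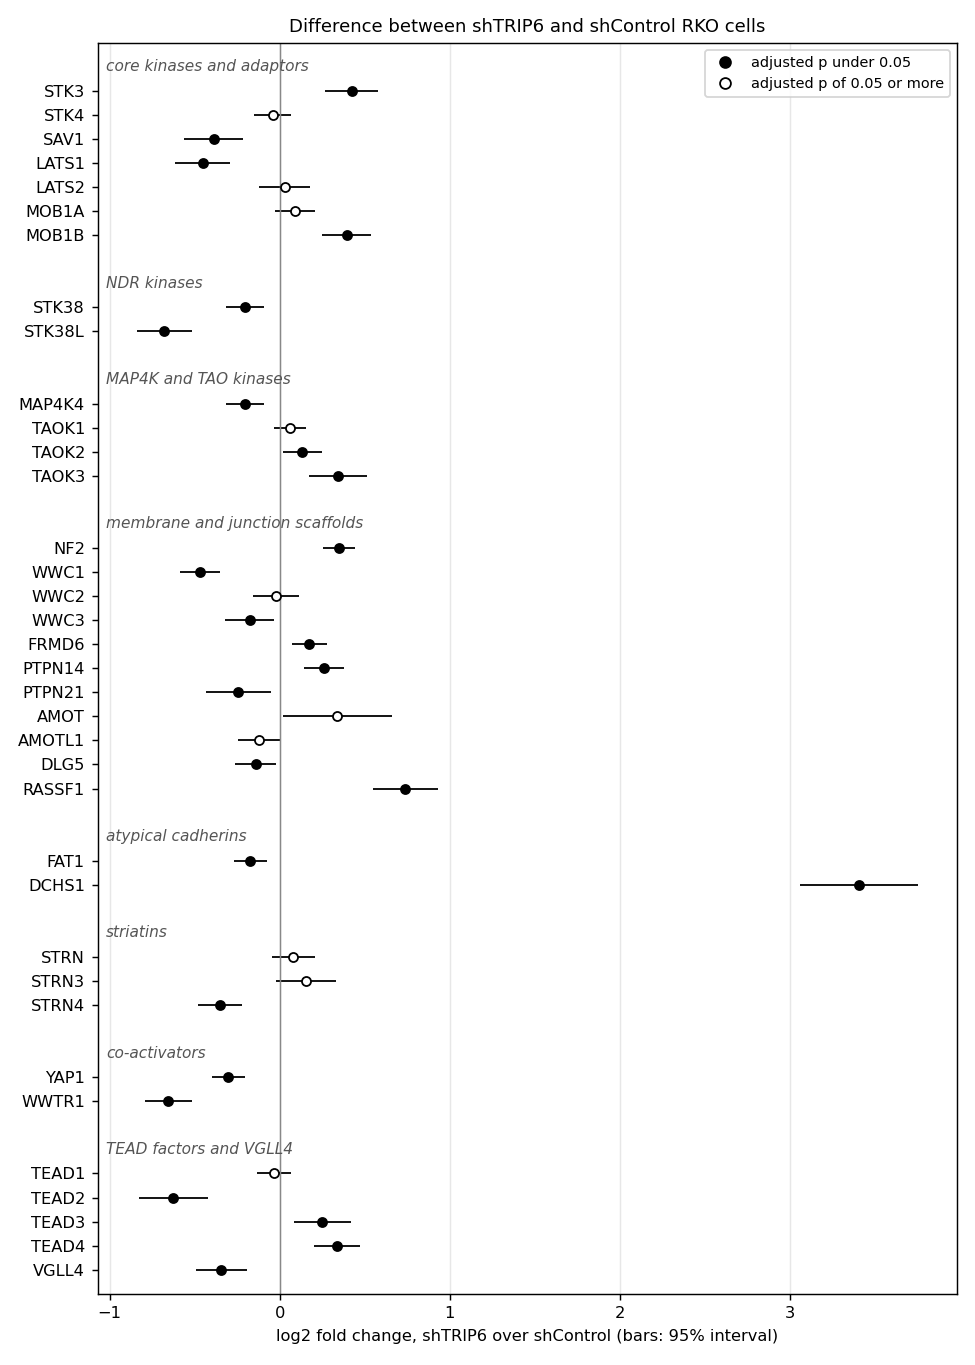
Log2 fold change of shTRIP6 over shControl for the 36 Hippo pathway genes, by tier, with 95% intervals from edgeR (3 libraries per group). Filled points passed an adjusted p of 0.05, and all points but DCHS1, at 3.41, lie between -0.68 and 0.74.

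Levels were compared between genes as CPM per kb of merged exons, which takes out gene length. On this scale the members had a median of 7.32 CPM per kb in shTRIP6 and 7.19 CPM per kb in shControl, where the 14825 tested genes with a known length had medians of 4.99 CPM per kb in shTRIP6 and 5.34 CPM per kb in shControl. TEAD1, at 33.6 ± 1.78 CPM per kb in shTRIP6 and 34.4 ± 1.47 CPM per kb in shControl, and YAP1, at 31.7 ± 0.879 CPM per kb in shTRIP6 and 39.2 ± 1.37 CPM per kb in shControl, were the most abundant members, with TEAD1 first in shTRIP6 and YAP1 first in shControl. The libraries of TEAD1 and YAP1 overlapped in level in shTRIP6 and did not in shControl. MOB1A, NF2, TEAD4 and STK38 followed in either group, in an order that differed between the groups. AMOT, an angiomotin scaffold gene (0.792 ± 0.0807 CPM per kb in shTRIP6 and 0.626 ± 0.0376 CPM per kb in shControl), and DCHS1 (1.29 ± 0.151 CPM per kb in shTRIP6 and 0.122 ± 0.0087 CPM per kb in shControl) were the least abundant. These lengths count every annotated exon. With the longest annotated transcript in their place, YAP1, TEAD1 and MOB1A were the top members in shControl, and AMOT and DCHS1 again the lowest.

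**Figure D2:**
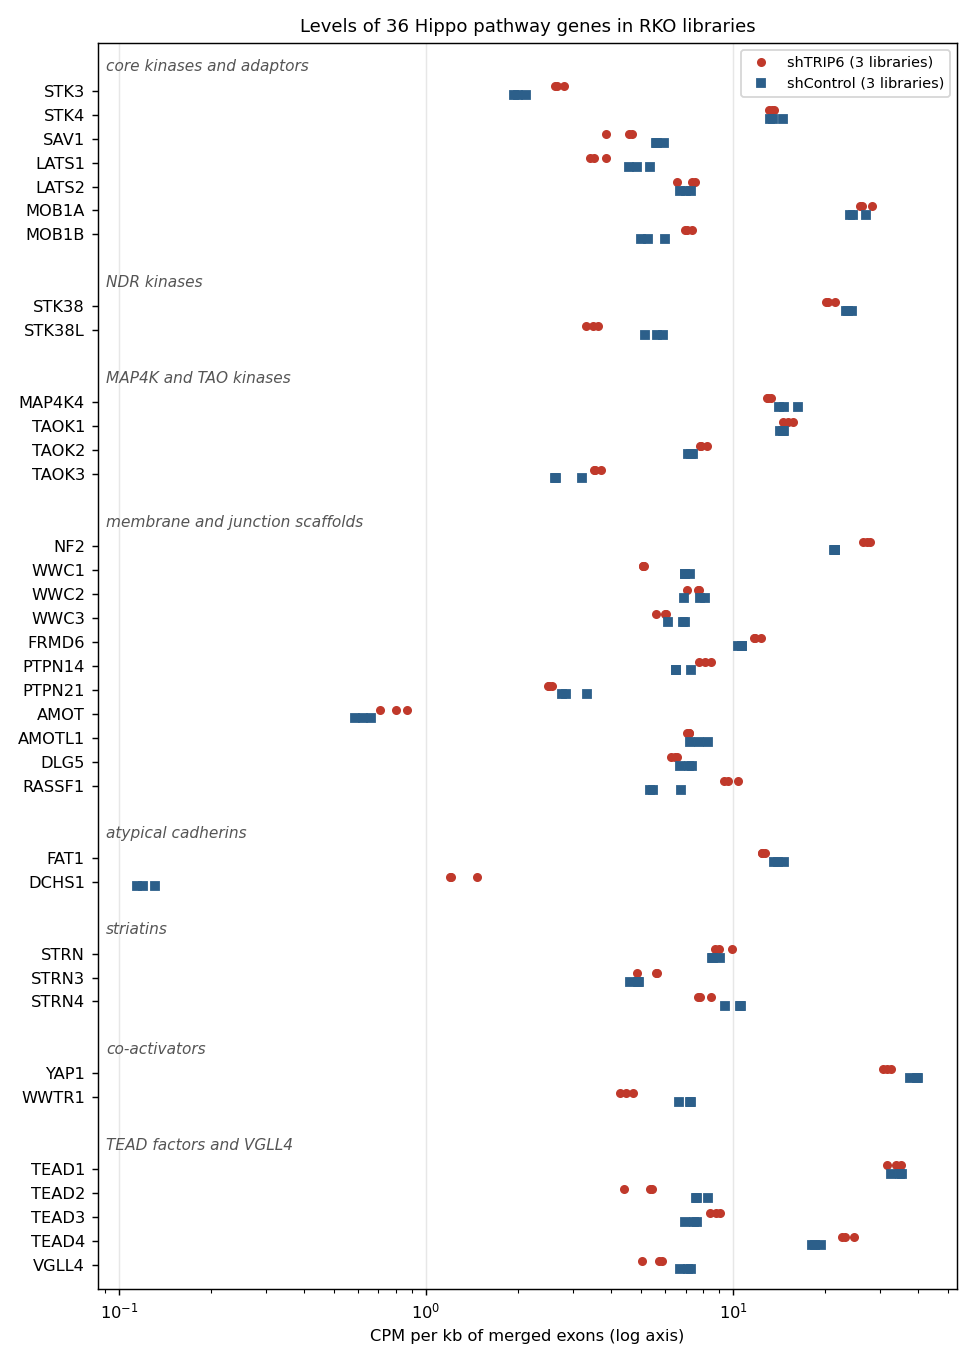
Levels of the 36 Hippo pathway genes in CPM per kb of merged exons on a log axis, 1 point per library, shTRIP6 as circles and shControl as squares. TEAD1, YAP1, MOB1A and NF2 lie near the right edge in both groups, and DCHS1 shows the widest gap between the groups.

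The upstream sequence of 29 members was at hand (RefSeq, GRCh38.p14), and the 250 bases before each start were searched for the M-CAT element bound by TEAD factors, GGAATG, and for its reverse complement CATTCC. The search was made because some pathway genes, PTPN14 among them, are known targets of YAP and TEAD. The element was found in 6 of the 29 members (20.7%), against 14.3% of 27305 genes searched in the same way. A gene with several starts had a window for each, up to 5 for VGLL4, and was counted if any window held the element. More windows thus give more room for a match. Of all 35116 windows, 11.9% held it. That share is per window and was not counted for the members, so the 20.7% per gene does not compare with it. The difference between members and all genes was not tested. Below are 80 bases around each match, 5′ to 3′ on the strand of the gene, with the element in capitals.
PTPN14: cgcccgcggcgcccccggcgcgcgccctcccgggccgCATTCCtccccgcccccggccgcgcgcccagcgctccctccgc
RASSF1: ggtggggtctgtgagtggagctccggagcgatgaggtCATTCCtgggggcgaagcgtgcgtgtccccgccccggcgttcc
TAOK3: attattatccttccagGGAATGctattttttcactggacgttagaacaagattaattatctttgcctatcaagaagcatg
YAP1: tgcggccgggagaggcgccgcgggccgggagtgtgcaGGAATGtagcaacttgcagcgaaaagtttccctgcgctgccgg
PTPN21: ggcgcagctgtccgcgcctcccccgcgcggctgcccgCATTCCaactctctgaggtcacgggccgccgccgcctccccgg
WWC2: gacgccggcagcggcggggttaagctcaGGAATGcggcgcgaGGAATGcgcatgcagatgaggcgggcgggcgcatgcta
The stretches lie at chr1:214551760-214551839 (minus strand) for PTPN14, chr3:50337494-50337573 (minus) for RASSF1, chr12:118190706-118190785 (minus) for TAOK3, chr11:102110248-102110327 (plus) for YAP1, chr14:88555035-88555114 (minus) for PTPN21 and chr4:183099007-183099086 (plus) for WWC2. The element began 200 bases before the RefSeq start searched in PTPN14, 86 in RASSF1, 234 in TAOK3, 162 in YAP1, 70 in PTPN21, and 222 and 208 in WWC2. Not every such start is the first of its gene, since the ends of the printed stretches nearest to the first GENCODE start lie 182160 bases inside TAOK3, 3407 inside RASSF1 and 610 inside PTPN14. TAOK3 had 2 windows, and the other one did not hold the element. Genes with the element went both ways, with PTPN14, RASSF1 and TAOK3 called higher in shTRIP6, YAP1 and PTPN21 called lower and WWC2 not called. A match is a description of these letters and not evidence of binding.

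Both co-activator genes fell in shTRIP6, with the larger log2 fold change in WWTR1. YAP1 had 194, 199.7 and 205 CPM in the shTRIP6 libraries, against 237, 253 and 250.2 CPM in the shControl libraries (log2 fold change -0.30 ± 0.046, edgeR adjusted p = 1.49e-05). WWTR1 had 37.6, 35.9 and 39.6 CPM in the shTRIP6 libraries, against 61.2, 61.0 and 56.1 CPM in the shControl libraries (log2 fold change -0.66 ± 0.066, edgeR adjusted p = 7.91e-08). Neither co-activator gene showed any overlap, with all shTRIP6 values under the lowest shControl value. The summed level of both genes was 36.2 ± 1.01 CPM per kb in shTRIP6 and 46.2 ± 1.28 CPM per kb in shControl, and WWTR1 made up 12.4 ± 0.446% in shTRIP6 and 15.3 ± 0.925% in shControl of that sum, so YAP1 was the main co-activator transcript in both groups. The log2 ratio of WWTR1 to YAP1 counts was -2.41 ± 0.060 in shTRIP6 and -2.05 ± 0.10 in shControl, a difference of -0.35, with no overlap between the groups (exact two-sided permutation p = 0.1, the smallest that 3 against 3 libraries can give). Exons of WWTR1 share 795 bases with WWTR1-AS1 on the other strand, whose level came to 0.273% of that of WWTR1. YAP1 is the co-activator gene whose upstream element is printed above, and the search found none upstream of WWTR1.

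The TEAD genes did not move together, and TEAD2 went the opposite way from TEAD3 and TEAD4. TEAD1, the most abundant, had 325, 349 and 362 CPM in the shTRIP6 libraries, against 364, 336 and 359 CPM in the shControl libraries. The groups overlapped and the log2 fold change of TEAD1 was -0.033 with a 95% interval of -0.13 to 0.069, edgeR adjusted p = 0.583. TEAD2 had 15.9, 16.2 and 13.2 CPM in the shTRIP6 libraries, against 24.6, 22.8 and 22.5 CPM in the shControl libraries (log2 fold change -0.63 ± 0.10, edgeR adjusted p = 1.90e-05). TEAD3 had 27.6, 26.8 and 25.6 CPM in the shTRIP6 libraries, against 23.3, 21.2 and 22.7 CPM in the shControl libraries (log2 fold change 0.25 ± 0.080, edgeR adjusted p = 0.0114). TEAD2 was lower in every shTRIP6 library and TEAD3 higher in every one, though the call of TEAD3 was lost without shControl replicate 2 (edgeR adjusted p = 0.0515). TEAD4 had 56.2, 52.8 and 51.4 CPM in the shTRIP6 libraries, against 41.0, 43.9 and 42.0 CPM in the shControl libraries, with no overlap (log2 fold change 0.34 ± 0.064, edgeR adjusted p = 1.56e-04). TEAD4 is known from the mouse embryo, where the trophectoderm depends on it. Per length, the 4 genes summed to 71.0 ± 0.432 CPM per kb in shTRIP6 and 68.2 ± 1.42 CPM per kb in shControl. In that sum TEAD1 held 47.4 ± 2.55% in shTRIP6 and 50.4 ± 1.15% in shControl, TEAD4 33.2 ± 1.56% in shTRIP6 and 27.3 ± 1.52% in shControl, TEAD3 12.3 ± 0.446% in shTRIP6 and 10.8 ± 0.302% in shControl and TEAD2 7.14 ± 0.759% in shTRIP6 and 11.5 ± 0.438% in shControl. By share the order was TEAD1, TEAD4, TEAD3 and TEAD2 in shTRIP6, and TEAD1, TEAD4, TEAD2 and TEAD3 in shControl, where TEAD2 and TEAD3 stood close together. The log2 ratio of TEAD2 to TEAD1 counts was -4.52 ± 0.23 in shTRIP6 and -3.92 ± 0.065 in shControl, a difference of -0.60 (exact two-sided permutation p = 0.1). VGLL4, a corepressor that competes with YAP and TAZ for TEAD, had 42.5, 41.6 and 36.6 CPM in the shTRIP6 libraries, against 52.9, 48.7 and 51.6 CPM in the shControl libraries, lower in every shTRIP6 library (log2 fold change -0.34 ± 0.070, edgeR adjusted p = 3.49e-04). Exons of VGLL4 share 1596 bases with ATG7 on the other strand, which stood at 45.5 CPM in shTRIP6 and 48.6 CPM in shControl and did not pass the test. No source used here gives the strand setting of the counts.

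**Figure D3:**
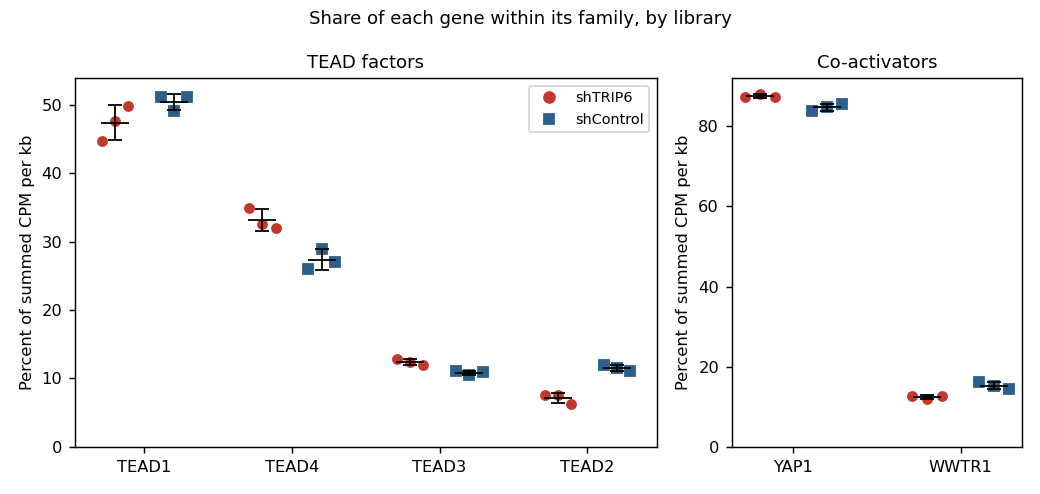
Share of each TEAD gene and of each co-activator gene in the summed CPM per kb of its family, by library, with mean ± SD in black (3 libraries per group, shTRIP6 left of shControl). TEAD4 and TEAD3 take a larger share in shTRIP6, TEAD2 and WWTR1 a smaller one.

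In the kinase core the paralogs of each step differed unequally. STK3 had 35.4, 33.5 and 33.2 CPM in the shTRIP6 libraries, against 25.2, 24.3 and 26.7 CPM in the shControl libraries, higher in every shTRIP6 library (log2 fold change 0.42 ± 0.075, edgeR adjusted p = 7.88e-05). STK4, the more abundant MST gene per length, had 119, 123 and 122 CPM in the shTRIP6 libraries, against 132, 119.9 and 122 CPM in the shControl libraries. Its groups overlapped, and its log2 fold change was -0.042 with a 95% interval of -0.15 to 0.066, edgeR adjusted p = 0.497. The adaptor gene SAV1 averaged 24.6 ± 2.55 CPM in shTRIP6 and 32.3 ± 1.02 CPM in shControl (log2 fold change -0.39 ± 0.084, edgeR adjusted p = 5.57e-04). LATS1 had 30.5, 29.5 and 33.4 CPM in the shTRIP6 libraries, against 46.3, 39.6 and 42.0 CPM in the shControl libraries, lower in every shTRIP6 library (log2 fold change -0.45 ± 0.077, edgeR adjusted p = 5.39e-05). LATS2, which is also a target gene of YAP and TAZ, had 41.1, 41.9 and 36.6 CPM in the shTRIP6 libraries, against 39.1, 37.5 and 40.6 CPM in the shControl libraries. The groups of LATS2 overlapped, with a log2 fold change of 0.030 with a 95% interval of -0.12 to 0.18, edgeR adjusted p = 0.74. The MOB1 proteins are the co-factors that LATS and NDR kinases need. MOB1B had 62.4, 61.2 and 64.9 CPM in the shTRIP6 libraries, against 52.9, 46.4 and 44.1 CPM in the shControl libraries, with no overlap (log2 fold change 0.40 ± 0.069, edgeR adjusted p = 6.89e-05). MOB1A, the more abundant of the pair, averaged 173 ± 8.73 CPM in shTRIP6 and 162 ± 10.9 CPM in shControl, with a log2 fold change of 0.090 with a 95% interval of -0.025 to 0.21, edgeR adjusted p = 0.167. MOB1A was called without shControl replicate 1 (edgeR adjusted p = 0.00598) and under upper-quartile scaling (0.0395).

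The NDR kinases STK38 and STK38L, relatives of LATS that also bind MOB1, were both lower. STK38L had 23.0, 24.2 and 25.1 CPM in the shTRIP6 libraries, against 41.0, 39.2 and 35.6 CPM in the shControl libraries (log2 fold change -0.68 ± 0.077, edgeR adjusted p = 4.51e-07), the largest fall among the 36 genes. STK38 had 76.6, 73.1 and 72.0 CPM in the shTRIP6 libraries, against 87.1, 83.4 and 85.0 CPM in the shControl libraries (log2 fold change -0.21 ± 0.054, edgeR adjusted p = 0.00288). Neither gene had a shTRIP6 value as high as the lowest shControl value.

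The balance within 6 pairs of paralogs, each from a single step, was compared as the log2 ratio of their counts, whose level also depends on gene length and whose difference between groups does not. The ratio of STK3 to STK4 was -1.83 ± 0.073 in shTRIP6 and -2.30 ± 0.10 in shControl, a difference of 0.47. The ratio of LATS2 to LATS1 was 0.36 ± 0.20 in shTRIP6 and -0.12 ± 0.11 in shControl, a difference of 0.48, and that of MOB1B to MOB1A was -1.46 ± 0.040 in shTRIP6 and -1.77 ± 0.043 in shControl, a difference of 0.31. These 3 ratios were higher in every shTRIP6 library than in any shControl library. The ratio of STK38L to STK38 was -1.62 ± 0.11 in shTRIP6 and -1.14 ± 0.095 in shControl, a difference of -0.47, lower in every shTRIP6 library, as were those of WWTR1 to YAP1 and TEAD2 to TEAD1 given above. In each of the 6 pairs the exact two-sided permutation p was 0.1, and 0.1 after adjustment over the 6 pairs, which is the smallest that 3 against 3 libraries allow, so no pair could pass 0.05. How often the ratios of other gene pairs do not overlap was not counted. Taken singly, 65.3% of all tested genes and 69.7% of those at 5 CPM did not overlap. The pairs came from members chosen with earlier results known, and of the TEAD genes only TEAD2 and TEAD1 were paired.

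**Figure D4:**
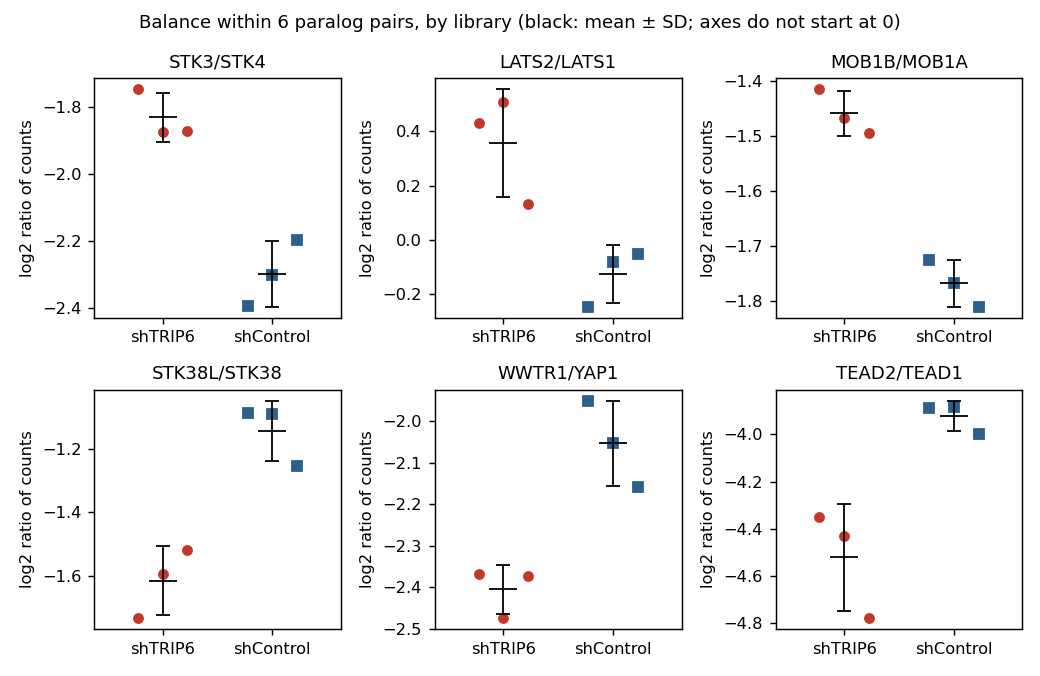
Log2 ratio of counts within 6 paralog pairs, 1 point per library, with mean ± SD in black (3 libraries per group, shTRIP6 left of shControl). In every pair the libraries of the groups do not overlap, with the first 3 ratios higher and the last 3 lower in shTRIP6. No background share was counted for the ratios of other gene pairs.

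The MAP4K and TAO kinases, which activate LATS beside the MST kinases, went in both directions by small amounts. TAOK3 had 37.6, 37.3 and 39.2 CPM in the shTRIP6 libraries, against 34.1, 27.9 and 28.0 CPM in the shControl libraries, higher in every shTRIP6 library (log2 fold change 0.34 ± 0.082, edgeR adjusted p = 0.00142). The element printed above for TAOK3 lies before an internal start. MAP4K4 had 158, 154 and 155 CPM in the shTRIP6 libraries, against 195, 175 and 169 CPM in the shControl libraries, lower in every shTRIP6 library (log2 fold change -0.20 ± 0.054, edgeR adjusted p = 0.00316). TAOK2 had 74.6, 70.9 and 71.5 CPM in the shTRIP6 libraries, against 64.7, 65.9 and 67.3 CPM in the shControl libraries (log2 fold change 0.13 ± 0.055, edgeR adjusted p = 0.0446). Its call was lost in 10 of 14 alternatives, leaving out any single library among them, with adjusted p up to 0.143 without shTRIP6 replicate 1. TAOK1 averaged 256 ± 9.51 CPM in shTRIP6 and 245 ± 4.00 CPM in shControl, with a log2 fold change of 0.062 with a 95% interval of -0.032 to 0.16, edgeR adjusted p = 0.245, and was called under upper-quartile scaling (adjusted p = 0.0416).

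Among the membrane and junction scaffolds, 4 of 11 genes were higher (36.4%), 4 lower (36.4%) and 3 not called. Of all tested genes 29.0% were higher and 31.2% lower, and of those at 5 CPM 33.3% and 32.1%. The shares of this tier were thus near the background at 5 CPM. RASSF1, whose RASSF1A isoform binds and activates MST kinases and is often silenced in tumours, had 35.5, 38.2 and 34.5 CPM in the shTRIP6 libraries, against 20.2, 24.8 and 19.8 CPM in the shControl libraries (log2 fold change 0.74 ± 0.090, edgeR adjusted p = 1.01e-06). This was the largest difference of the tier, and no shTRIP6 library overlapped a shControl library. The counts are per gene symbol and do not separate RASSF1A from other isoforms of RASSF1. NF2, which encodes merlin, the membrane protein that brings LATS to the plasma membrane, had 196, 201 and 189 CPM in the shTRIP6 libraries, against 154, 153 and 154 CPM in the shControl libraries (log2 fold change 0.35 ± 0.046, edgeR adjusted p = 2.42e-06). WWC1, the gene of the merlin partner KIBRA, had 51.4, 51.1 and 51.8 CPM in the shTRIP6 libraries, against 73.2, 70.1 and 70.4 CPM in the shControl libraries (log2 fold change -0.47 ± 0.056, edgeR adjusted p = 8.38e-07). Merlin and KIBRA act in a common complex upstream of LATS, and their genes went in opposite directions with no overlap between the groups in either. Of the other KIBRA family genes, WWC3 averaged 41.9 ± 1.71 CPM in shTRIP6 and 47.4 ± 3.33 CPM in shControl (log2 fold change -0.18 ± 0.069, edgeR adjusted p = 0.0343), a call lost in 6 of 14 alternatives, with adjusted p up to 0.169 without shTRIP6 replicate 3. WWC2 averaged 74.7 ± 3.61 CPM in shTRIP6 and 76.0 ± 6.13 CPM in shControl, with a log2 fold change of -0.023 with a 95% interval of -0.16 to 0.11, edgeR adjusted p = 0.772.

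FRMD6, the relative of fly expanded, averaged 113 ± 3.18 CPM in shTRIP6 and 99.8 ± 1.60 CPM in shControl (log2 fold change 0.17 ± 0.050, edgeR adjusted p = 0.00539). PTPN14, a phosphatase that binds YAP and whose gene is a YAP target, averaged 152 ± 6.52 CPM in shTRIP6 and 127 ± 8.43 CPM in shControl (log2 fold change 0.26 ± 0.055, edgeR adjusted p = 4.62e-04), and each shTRIP6 library lay above each shControl library. Its relative PTPN21 averaged 18.7 ± 0.327 CPM in shTRIP6 and 22.1 ± 2.27 CPM in shControl (log2 fold change -0.24 ± 0.092, edgeR adjusted p = 0.0279). So these related phosphatase genes, each with a CATTCC element in the stretch printed above, were called in opposite directions, although the call of PTPN21 was lost in 5 of 14 alternatives, with adjusted p up to 0.14 without shControl replicate 1. DLG5, a polarity scaffold gene, averaged 66.1 ± 1.63 CPM in shTRIP6 and 72.8 ± 3.60 CPM in shControl (log2 fold change -0.14 ± 0.058, edgeR adjusted p = 0.0422), a call lost in 7 of 14 alternatives, with adjusted p up to 0.173 under upper-quartile scaling. The angiomotins hold YAP at junctions and on actin. AMOTL1 averaged 71.6 ± 0.621 CPM in shTRIP6 and 77.8 ± 5.47 CPM in shControl, with a log2 fold change of -0.12 with a 95% interval of -0.24 to 0.0038, edgeR adjusted p = 0.0875. AMOT averaged 6.73 ± 0.686 CPM in shTRIP6 and 5.32 ± 0.319 CPM in shControl, with a log2 fold change of 0.34 with a 95% interval of 0.021 to 0.66, edgeR adjusted p = 0.0615. Neither angiomotin gene passed, but the libraries of the groups did not overlap in either. AMOT was called without shTRIP6 replicate 1 (edgeR adjusted p = 0.0478), without shControl replicate 1 (0.0470) and under upper-quartile scaling (0.0342), and AMOTL1 without shControl replicate 2 (0.0284).

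Of the striatins, scaffolds of the STRIPAK phosphatase complex that inactivates MST kinases, 1 of 3 was called. This came to 33.3%, against 60.1% of all tested genes and 65.3% of those at 5 CPM. STRN4 had 64.7, 59.5 and 58.9 CPM in the shTRIP6 libraries, against 80.7, 72.1 and 80.9 CPM in the shControl libraries, lower in every shTRIP6 library (log2 fold change -0.35 ± 0.063, edgeR adjusted p = 8.63e-05). STRN averaged 76.9 ± 5.41 CPM in shTRIP6 and 72.8 ± 2.42 CPM in shControl, with a log2 fold change of 0.079 with a 95% interval of -0.047 to 0.21, edgeR adjusted p = 0.27. STRN3 averaged 26.7 ± 2.20 CPM in shTRIP6 and 24.0 ± 0.889 CPM in shControl, with a log2 fold change of 0.16 with a 95% interval of -0.020 to 0.33, edgeR adjusted p = 0.116, and it was called without shTRIP6 replicate 2 (edgeR adjusted p = 0.0426) and under upper-quartile scaling (0.0426).

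DCHS1, the gene of the atypical cadherin Dachsous, a ligand of FAT4, showed by far the widest difference among the members. DCHS1 had 13.0, 15.8 and 12.9 CPM in the shTRIP6 libraries, against 1.41, 1.28 and 1.23 CPM in the shControl libraries (log2 fold change 3.41 ± 0.17, edgeR adjusted p = 2.27e-12). In counts this was 1311 over the 3 shTRIP6 libraries and 120 over the 3 shControl libraries, and the shTRIP6 mean was 10.6-fold higher. It lies on chromosome 11 from 6621323 to 6655854, minus strand (GRCh38), and none of its exons overlap exons of another counted gene. The nearest tested genes on either side differed far less, with TPP1 at a log2 fold change of -0.42 (edgeR adjusted p = 2.73e-06) and MRPL17 at 0.24 (0.000600), both named after their values were seen. Even so, DCHS1 stayed at the low end of the pathway per length in both groups. FAT1, a giant atypical cadherin gene and among the more abundant members, had 201, 206 and 200.4 CPM in the shTRIP6 libraries, against 237, 220.2 and 227 CPM in the shControl libraries (log2 fold change -0.17 ± 0.045, edgeR adjusted p = 0.00304). The groups did not overlap for either cadherin gene, which went in opposite directions.

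Outside the 36 genes, a list of 59 further Hippo pathway genes held 50 that could be tested. Of these, 23 were called higher (46%) and 10 lower (20%) in shTRIP6. Among all tested genes 29.0% were higher and 31.2% lower, and among those at 5 CPM 33.3% and 32.1%, a level that not every listed gene reached. The differences from these shares were not tested, and the sublists below have the same backgrounds. The partners of DCHS1 were among those called higher. FAT4, its receptor, averaged 103 ± 2.70 CPM in shTRIP6 and 77.3 ± 4.06 CPM in shControl (log2 fold change 0.42 ± 0.055, edgeR adjusted p = 2.49e-06), and FJX1, the relative of the fly kinase four-jointed that modifies these cadherins, averaged 103 ± 3.51 CPM in shTRIP6 and 84.1 ± 8.41 CPM in shControl (log2 fold change 0.30 ± 0.065, edgeR adjusted p = 5.97e-04). FAT2 did not pass, and FAT3 and DCHS2 had too few counts to be tested. Of the other vestigial-like genes VGLL3 averaged 80.4 ± 0.479 CPM in shTRIP6 and 66.2 ± 3.89 CPM in shControl (log2 fold change 0.28 ± 0.057, edgeR adjusted p = 3.56e-04), and VGLL1 had no count in any library.

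**Figure D5:**
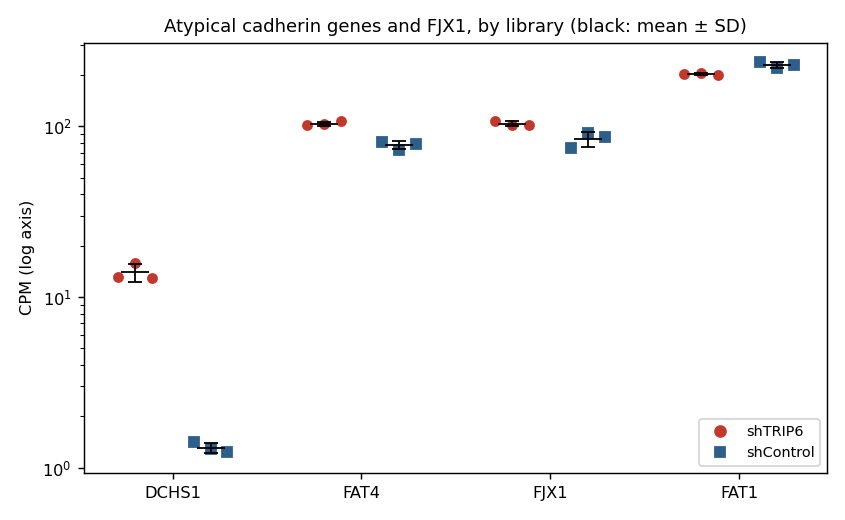
CPM of DCHS1, FAT4, FJX1 and FAT1 on a log axis, 1 point per library, with mean ± SD in black (3 libraries per group, shTRIP6 left of shControl). DCHS1 stands at 12.9 to 15.8 CPM in shTRIP6 and at 1.23 to 1.41 CPM in shControl, and the other genes differ far less.

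Of 13 tested further scaffold and polarity genes, 5 were higher and 4 lower. The polarity genes SCRIB and LLGL1 rose (0.47 and 0.48 as log2 fold changes), and SCRIB averaged 150.5 ± 3.59 CPM in shTRIP6 and 109 ± 6.59 CPM in shControl and LLGL1 59.4 ± 1.78 CPM in shTRIP6 and 42.7 ± 0.659 CPM in shControl. LLGL2, the epithelial relative of LLGL1, averaged 0.265 ± 0.130 CPM in shTRIP6 and 17.5 ± 1.11 CPM in shControl (log2 fold change -6.03 ± 0.22, edgeR adjusted p = 2.49e-14), and CRB2, a crumbs polarity gene, averaged 0.339 ± 0.0762 CPM in shTRIP6 and 1.82 ± 0.397 CPM in shControl (log2 fold change -2.41 ± 0.39, edgeR adjusted p = 2.74e-05). Exons of LLGL1 share 40 bases with FLII and exons of CRB2 share 362 bases with DENND1A, which were called in the same direction as their partner. The level of FLII came to 561% of that of LLGL1 and the level of DENND1A to 2440% of that of CRB2, and the part of these partners in the CRB2 and LLGL1 counts was not tested. AMOTL2, the third angiomotin gene and itself a YAP target, averaged 409 ± 2.17 CPM in shTRIP6 and 305 ± 11.1 CPM in shControl (log2 fold change 0.42 ± 0.043, edgeR adjusted p = 9.15e-08). The LATS-binding LIM protein genes AJUBA and LIMD1 stood at log2 fold changes of 0.22 and 0.23. WTIP, a further LIM protein gene of the list, did not pass (log2 fold change 0.047, edgeR adjusted p = 0.688). AMOTL2, AJUBA, LIMD1 and WTIP were named after their values were seen.

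Of 9 tested further MAP4K, RASSF and germinal centre kinase genes, 5 were higher and 1 lower. RASSF4 averaged 15.1 ± 1.19 CPM in shTRIP6 and 7.57 ± 1.15 CPM in shControl (log2 fold change 1.00 ± 0.13, edgeR adjusted p = 2.05e-06), and STK25, a kinase of the STRIPAK complex, averaged 189.9 ± 3.87 CPM in shTRIP6 and 116 ± 9.16 CPM in shControl (log2 fold change 0.71 ± 0.055, edgeR adjusted p = 2.44e-09). RASSF5, the gene of an MST-binding RAS effector, averaged 2.78 ± 0.763 CPM in shTRIP6 and 13.5 ± 0.339 CPM in shControl (log2 fold change -2.27 ± 0.17, edgeR adjusted p = 8.92e-10) and was the sole gene of this sublist called lower. Among 12 tested STRIPAK and phosphatase subunit genes, 5 were higher and 3 lower, with MOB4 at a log2 fold change of 0.41, PPP2R1B at 0.31, PDCD10 at -0.38 and STRIP2 at -0.20. Exons of MOB4 overlap the read-through gene HSPE1-MOB4 on the same strand, so these counts may be split between them. Among 12 tested genes for YAP turnover and its phosphoserine-binding adaptors, 5 were higher and 2 lower. SFN, an adaptor that retains phosphorylated proteins in the cytoplasm, stood at a log2 fold change of 0.44, the ubiquitin ligase gene NEDD4L at 0.25, the ligase gene ITCH at -0.24 and the kinase gene CSNK1D, whose product marks YAP for turnover, at -0.18. Exons of CSNK1D share 482 bases with SLC16A3 on the other strand, which was called higher and stood at 290% of its level. RASSF4 shares 695 bases with DEPP1 (67.0% of its level) and PPP2R1B 150 with SIK2 (57.1%), neither partner being called. Some other named genes of the list also overlap counted genes, and the part of such partners was not tested.

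In 12 of the 36 genes, exons overlap with exons of a further counted gene. Apart from VGLL4 and WWTR1 above, these were SAV1, MOB1B, TAOK1, WWC2, PTPN21, AMOT, RASSF1, STRN3, STRN4 and TEAD2. The partner of SAV1, ATL1, stood at 7.97 CPM in shTRIP6 and 3.63 CPM in shControl and went the other way from SAV1, which shares 840 bases with it. The partner of MOB1B, DCK, lies on the same strand, shares 199 bases and was called higher as MOB1B was (log2 fold change 0.34, edgeR adjusted p = 0.000442). The partner of TEAD2, CD37, shares 319 bases and was called lower as TEAD2 was, at 0.138 CPM in shTRIP6 and 0.942 CPM in shControl, 2.81% of the level of TEAD2. Within groups the members were steady, with a coefficient of variation of 0.679% to 11.7% (median 4.17%) over the shTRIP6 libraries and 0.103% to 13.0% (median 4.91%) over the shControl libraries.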

How the data were processed

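RNA was measured in 6 RKO libraries. The authors deposited raw read counts per gene symbol, 27980 in each library, with no normalization. TopHat2, edgeR, limma and hg38 are named without role or version, per the submitters' processing notes. No source used here gives the counting tool, its annotation or its strand setting.

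Groups came from the sample titles. The test was edgeR 4.0.16 in R 4.3.3 (TMM scaling, filterByExpr, quasi-likelihood test, group as the only term, Benjamini-Hochberg adjustment over all tested genes, threshold 0.05). CPM used TMM-scaled library sizes, and 1 count was worth 0.0314 to 0.0336 CPM. The SE was the log2 fold change divided by the square root of F. Means are given ± SD with n = 3 per group. Gene lengths came from GENCODE release 29 (GRCh38).

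Alternatives were other scalings (RLE, upper-quartile, none), other filters (none, 1 CPM), DESeq2 1.42.0, voom in limma 3.58.1, a replicate block and leaving out each library. The background of genes at 5 CPM or above was added after the data were seen. The test was checked on simulated counts for 15304 genes, where it recovered 96% of those changed 4-fold and 32% of those changed 1.2-fold.

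The members and lists were chosen with earlier results of these data known. By rule, library values were given for YAP1, WWTR1, the TEAD genes, STK3, STK4, LATS1, LATS2, NF2 and the 3 largest called changes of each tier with a mean of 1 CPM or more. Of the further pathway genes, up to 2 rises and 2 falls per sublist were named. A leukocyte marker of the list is not reported here.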

Additional observations from a re-analysis of the deposited data

How the results depend on the processing

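Of the 26 called members, 21 kept their call and direction in all 14 alternatives, and 5 (TAOK2, WWC3, PTPN21, DLG5 and TEAD3) lost it in some, while no called member changed sign. Members called higher numbered 9 to 15 and members called lower 12 to 15 over the alternatives. The further pathway genes numbered 21 to 25 higher and 7 to 12 lower. TRIP6 ranged from -2.10 to -1.98 on the log2 scale. Of the 10 uncalled members, 5 were called in some alternative, and 4 near 0 changed sign without being called. Their log2 fold changes under upper-quartile scaling were 0.0052 for STK4, 0.024 for WWC2 and 0.015 for TEAD1. Leaving out 1 library each gave a range of -0.071 to 0.00063 for STK4, -0.00089 to 0.098 for LATS2, -0.088 to 0.024 for WWC2 and -0.067 to 0.017 for TEAD1. The cause was not tested. The differences of the 6 paralog ratios kept their sign throughout.

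No pairing of the libraries by replicate number was detected, which does not show that same-numbered libraries were handled apart. Deviations of same-numbered libraries correlated at -0.023, -0.045 and -0.026, no library correlated best with its own number, and the replicate block gave 10 members higher and 14 lower. Within replicate numbers the permutation p of each pair was 0.25, the smallest possible. Depth was lowest for DCHS1 in shControl, with 120 counts over the 3 libraries.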
